A study of Mus musculus with 4 samples.

Results

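The collagen gene family was followed by single-cell RNA sequencing through the onset of injury-induced heterotopic ossification, the formation of cartilage and bone in soft tissue. Members were all genes whose symbol has the form Col, a number, the letter a and a number with nothing after it, and 44 of the 32285 genes in the deposited matrices met this rule, covering 27 collagen types. Tibial muscle was taken from Nse-Bmp4 mice (C57BL/6, 6 to 8 weeks old), in which a neuron-specific enolase promoter drives a Bmp4 transgene, so every group, the uninjured one included, carried the transgene. The 4 groups were Uninjured muscle and muscle injured with cardiotoxin, a snake venom toxin that destroys muscle fibres, and taken 1, 3 or 7 days later (dpi, days post injury). Each group was 1 library made from 3 pooled muscles digested with collagenase, so library and time point cannot be told apart and no difference between time points has a replicate check. Intervals below are 95% intervals and cover counting error only.

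Collagens are secreted or membrane proteins built as trimers of chains that wind around each other, which requires a glycine at the start of each Gly-X-Y repeat. Fibril-forming collagens give tissue its tensile strength, type 4 forms the sheet of basement membranes, type 6 forms beaded filaments around cells, and the fibril-associated types (FACIT) sit on the surface of fibrils. Cartilage is built on type 2 fibrils with types 9 and 11, and type 10 is the collagen of hypertrophic chondrocytes, the enlarged cells that precede bone in endochondral ossification. What follows concerns collagen RNA, not protein.

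The repeat that defines the family can be read in the coding sequence as a GGN codon (glycine) at the start of each triplet of codons. The stretches shown here, each 10 triplets from the GENCODE transcript, contrast a bone and skin collagen, a cartilage collagen, a basement membrane collagen and the hypertrophic cartilage collagen, with the glycine codons in capitals.
Col1a1: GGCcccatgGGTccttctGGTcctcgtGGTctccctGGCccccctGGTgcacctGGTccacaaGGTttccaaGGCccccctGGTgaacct
Col2a1: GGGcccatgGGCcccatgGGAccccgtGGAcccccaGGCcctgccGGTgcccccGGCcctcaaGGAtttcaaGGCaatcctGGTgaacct
Col4a1: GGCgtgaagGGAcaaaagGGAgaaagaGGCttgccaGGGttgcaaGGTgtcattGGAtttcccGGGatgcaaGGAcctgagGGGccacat
Col10a1: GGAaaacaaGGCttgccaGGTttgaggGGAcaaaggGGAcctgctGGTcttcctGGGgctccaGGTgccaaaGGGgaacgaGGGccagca
The stretches come from codons 168 to 197 of Col1a1, 201 to 230 of Col2a1, 43 to 72 of Col4a1 and 299 to 328 of Col10a1. The longest unbroken run of such triplets ranged from 216 to 344 in the 11 fibril-forming genes, from 39 to 66 in the 6 type 4 genes, where it was split into 16 to 24 runs, and from 60 to 61 in the 3 short-chain genes of types 8 and 10. It ranged from 32 to 113 in the 9 FACIT genes, from 37 to 87 in the 6 type 6 genes, and was 30 in both multiplexins (types 15 and 18).

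The members lie on 15 chromosomes, and 18 of them have another member within 1 Mb. The type 4 genes stand in head-to-head pairs: the start sites of Col4a1 and Col4a2 are 21 bases apart on chromosome 8, those of Col4a3 and Col4a4 are 72 bases apart on chromosome 1, and those of Col4a5 and Col4a6 are 1309 bases apart on chromosome X. Col3a1 and Col5a2 lie tail to tail on chromosome 1 with 24614 bases between them. Exons of 3 members (Col3a1, Col7a1 and Col20a1) overlap a small gene on the same strand, so a part of their reads could have been assigned elsewhere. Exons of 10 members overlap a gene on the opposite strand. That would matter only if reads were counted without regard to strand, which is not given in the sources used here.

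Total UMIs (unique molecular identifiers, each standing for 1 captured RNA molecule) ranged from 91146335 to 129007669 per library, and the median per barcode was 8629 in Uninjured and 3083 at 7 dpi. After filtering, 9641 to 20301 cells per library were kept, and each cell was placed in a class by its markers, none of them a collagen. Cells were called mesenchymal by at least 3 markers of the mesenchymal list (such as Prrx1, Pdgfra, Lum or Fap), the chondrocyte list or the tenocyte list. A cell with enough chondrocyte or tenocyte markers could thus enter without a marker of the mesenchymal list. There were 7453, 2661, 4402 and 10184 mesenchymal cells in the Uninjured, 1 dpi, 3 dpi and 7 dpi libraries. All 7 mesenchymal markers were detected in each library, which the gate itself favours. Ptprc, the pan-leukocyte marker, was at 0.729 CPM (UMIs of a gene per 1000000 UMIs of the class) in mesenchymal cells of Uninjured muscle against 366 in B cells. At 1, 3 and 7 dpi it was at 7.05, 5.53 and 13 CPM in mesenchymal cells, against 881, 455 and 556 in B cells. B cells are not known to make fibrillar collagen, so the collagen UMIs in them were taken as background: it was 0.110%, 0.0434%, 0.132% and 0.694% of their UMIs in the 4 libraries. The background was therefore highest at 7 dpi, where comparisons of classes that make little collagen were not drawn. Other leukocyte classes gave different levels at 7 dpi. Collagen was at 6945 CPM in B cells, 4881 in monocytes and macrophages, 3596.5 in NK and T cells and 880 in 6 dendritic cells. It was higher in neutrophils, at 14004 CPM, and in 30 mast cells, at 32648 CPM. The B-cell level is thus 1 choice among classes that differ, and not an upper limit of background.

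Collagen made up 3.31% of the UMIs of mesenchymal cells in Uninjured muscle, 1.83% at 1 dpi, 2.80% at 3 dpi and 5.26% at 7 dpi. The share was therefore lowest on the day after injury and highest at 7 dpi. The ratio of successive libraries was 0.552 (0.550 to 0.554), 1.53 (1.52 to 1.53) and 1.88 (1.88 to 1.88). With each cell thinned to 1000 UMIs, the median mesenchymal cell held 29, 16, 24 and 52 collagen UMIs, against 0, 0, 1 and 3 in B cells. Of the 44 members, 40 reached 100 UMIs in mesenchymal cells of at least 1 library, and a member was said to rise or fall only where the CPM ratio was at least 2-fold with 100 UMIs on 1 side.

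At 1 dpi against Uninjured, 0 of 33 members with enough UMIs rose and 7 fell, while 5.22% of all genes tested rose and 3.61% fell. At 3 dpi against 1 dpi, 5 of 27 rose and 5 fell, beside 5.43% and 4.85% of all genes. At 7 dpi against 3 dpi, 19 of 38 rose and 4 fell, beside 9.07% and 7.39%. Of the 19, Col2a1, Col6a5, Col7a1, Col9a1, Col9a2, Col9a3, Col10a1, Col13a1, Col22a1, Col24a1 and Col26a1 met the UMI rule only at 7 dpi. Their 3 dpi counts were at most 47 UMIs (Col24a1). For such members the rule itself favours a call, and the same holds in the other comparisons. All genes were held to the same rule, and its effect on the counts was not tested. At 7 dpi against Uninjured, 17 of 40 rose and 10 fell, beside 14.5% and 11.5%. The median log2 ratio of the members was −0.43, −0.15 and 0.72 in these steps, against 0.18, −0.09 and −0.15 over all genes tested. The shape over time differed between members. It was read from the direction of each step alone, without the 2-fold rule. Some steps were very small, such as Col6a3 from 812.2 to 811.6 CPM between 3 and 7 dpi. By this reading 10 of 40 were lower in each successive library (8.29% of all genes), and 10 were lower at 1 dpi than in Uninjured and then higher in each later library (13.3%). Another 12 were lower at 1 and again at 3 dpi and then higher at 7 dpi (10.9%), and 5 were higher in each successive library (6.86%).

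**Figure D1:**
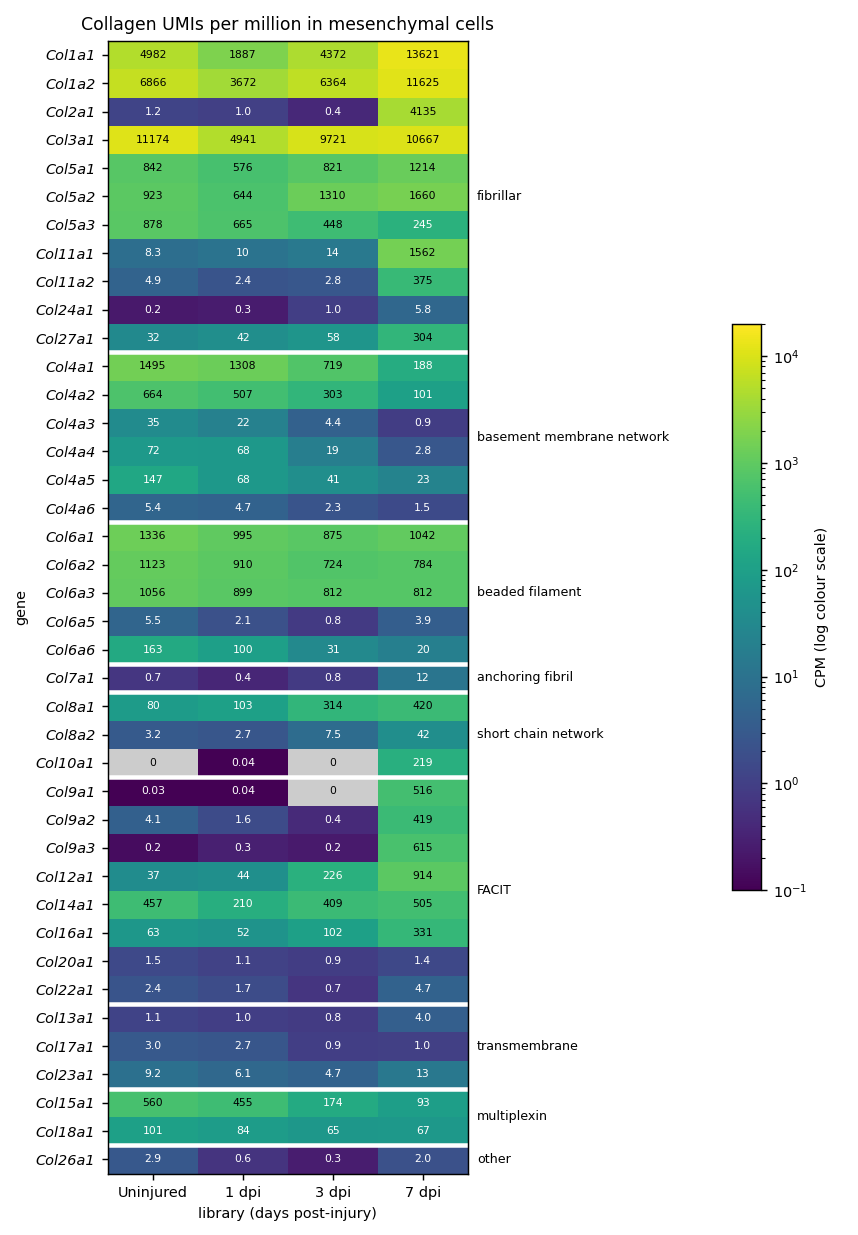
CPM of the 40 collagen genes with at least 100 UMIs in mesenchymal cells of a library, by library, on a logarithmic colour scale. The type 4 genes fade from left to right, and Col2a1, the type 9 genes and Col10a1 are near 0 until the 7 dpi library.

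Col1a1 and Col1a2 encode the chains of type 1 collagen, the main fibril of bone, tendon and scar. Col1a1 stood at 4982 CPM in Uninjured, 1887 at 1 dpi, 4372 at 3 dpi and 13621 at 7 dpi, so it fell to 0.379 (0.375 to 0.382) of the Uninjured value and then rose 2.32-fold (2.29 to 2.34) and 3.12-fold (3.10 to 3.13). The Col1a1 step from 1 to 3 dpi was under 2-fold with cells thinned to 1000 UMIs. Col1a2 followed the same course with smaller steps, at 6866, 3672, 6364 and 11625 CPM, and none of its ratios reached 2-fold. Col3a1, the chain of type 3 collagen of loose tissue and early scar, was at 11174, 4941, 9721 and 10667 CPM. It fell to 0.442 of the Uninjured value at 1 dpi and ended near that value. Col5a1 and Col5a2, chains of the type 5 collagen that starts type 1 fibrils, were at 842, 576, 821 and 1214 CPM and at 923, 644, 1310 and 1660 CPM, and Col5a2 rose 2.03-fold (2.0 to 2.07) from 1 to 3 dpi, a call lost with linear cell limits, thinning or B-cell subtraction. Col5a3, the third type 5 chain, went the other way at 878, 665, 448 and 245 CPM, with no single step of 2-fold.

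In mesenchymal cells as a whole, the fibril chains of cartilage were close to 0 until 7 dpi. Col2a1 was at 1.24, 1.02, 0.410 and 4135 CPM, and its ratio of 7 to 3 dpi was 10063 (6516 to 16475), resting on 20 UMIs at 3 dpi. Col11a1 was at 8.33, 10.5, 14.1 and 1562 CPM and rose 111-fold (103 to 120) in the last step. Col11a2 was at 4.87, 2.43, 2.75 and 375 CPM and rose 136-fold (115 to 163). Both chains of type 11 collagen, which sets the width of cartilage fibrils, thus rose together with Col2a1. The less studied fibril chains Col24a1 and Col27a1 were at 0.234, 0.254, 0.966 and 5.76 CPM and at 32.1, 41.6, 57.8 and 304 CPM, and rose 5.96-fold (4.40 to 8.25) and 5.25-fold (5.05 to 5.47) from 3 to 7 dpi.

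In mesenchymal cells the basement membrane chains ran in the opposite direction, and all 6 type 4 genes were lower in each successive library. Col4a1 was at 1495, 1308, 719 and 188 CPM and Col4a2, its partner in the common type 4 trimer, at 664, 507, 303 and 101 CPM. From 3 to 7 dpi they fell to 0.261 (0.256 to 0.266) and 0.333 (0.323 to 0.342) of the earlier value. Col4a3 and Col4a4, which share a start region, were at 35.3, 21.7, 4.38 and 0.929 CPM and at 71.9, 68.0, 18.5 and 2.77 CPM. They fell to 0.201 (0.171 to 0.236) and 0.273 (0.251 to 0.295) from 1 to 3 dpi and again to 0.212 (0.158 to 0.282) and 0.149 (0.127 to 0.175) from 3 to 7 dpi. Col4a5 and Col4a6 were at 147, 67.8, 41.1 and 23.4 CPM and at 5.36, 4.69, 2.34 and 1.52 CPM. Col4a5 fell to 0.462 (0.439 to 0.485) at 1 dpi, and Col4a6 was at 0.50 (0.385 to 0.648) of its 1 dpi value at 3 dpi, at the edge of the 2-fold rule. The Col4a6 fall was under 2-fold in 6 alternatives: no doublet removal, linear cell limits, thinning, median-of-ratios scaling, a denominator without collagen, and leaving out chondrocyte-like and tenocyte-like cells. The falls of Col4a1 and Col4a2 from 3 to 7 dpi were under 2-fold when mesenchymal cells were taken as those with a Prrx1 UMI and no Ptprc UMI. Type 4 as a whole went from 2418 CPM in Uninjured to 317 at 7 dpi in mesenchymal cells. Of the multiplexins, basement membrane zone collagens, Col15a1 was at 560, 455, 174 and 93.1 CPM and fell to 0.382 (0.372 to 0.393) from 1 to 3 dpi (under 2-fold with thinning), whereas Col18a1 was at 101, 84.3, 64.7 and 66.7 CPM with no 2-fold step.

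Type 6 moved less than types 1, 3 and 4, at 3684, 2907, 2443 and 2662 CPM in all. Col6a1, Col6a2 and Col6a3, which form the common type 6 trimer, were at 1336, 995, 875 and 1042 CPM, at 1123, 910, 724 and 784 CPM, and at 1056, 899, 812 and 812 CPM, and none passed 2-fold. The alternative chains moved more. Col6a6 was at 163, 99.7, 31.0 and 19.7 CPM and fell to 0.311 (0.292 to 0.331) from 1 to 3 dpi, and Col6a5, at 5.47, 2.11, 0.781 and 3.92 CPM, fell to 0.385 (0.287 to 0.508) at 1 dpi and rose 5.02-fold (3.56 to 7.24) in the last step. With the CPM of B cells subtracted, the last Col6a5 step turned to a log2 ratio of −0.15. Its direction thus depends on the background, which for this gene rests on very few UMIs in 193 B cells at 7 dpi. The fall of Col6a6 from 1 to 3 dpi and that of Col6a5 at 1 dpi were under 2-fold with cells thinned to 1000 UMIs.

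Among short-chain collagens, Col8a1 was at 80.3, 103, 314 and 420 CPM and rose 3.04-fold (2.92 to 3.17) from 1 to 3 dpi. Col8a2 was at 3.20, 2.65, 7.48 and 41.8 CPM and rose 2.82-fold (2.19 to 3.68) and then 5.59-fold (5.01 to 6.25). Col10a1 had 0, 1, 0 and 15076 UMIs, the last equal to 219 CPM, and was at least 3548-fold higher at 7 than at 3 dpi against a floor of 3 UMIs. UMIs of the hypertrophic cartilage collagen thus came almost wholly from the 7 dpi library.

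The FACIT genes split between cartilage and fibrous members. Col9a1 had 2, 1, 0 and 35556 UMIs (516 CPM at 7 dpi) and was at least 8368-fold higher at 7 than at 3 dpi. Col9a2 was at 4.13, 1.60, 0.431 and 419 CPM and Col9a3 at 0.151, 0.291, 0.247 and 615 CPM, with ratios of 972 (636 to 1570) and 2495 (1428 to 4828) in the last step. Col9a2 also fell to 0.388 (0.276 to 0.533) at 1 dpi, which was under 2-fold with thinning. The 3 type 9 chains, which decorate type 2 fibrils, together reached 1550 CPM. Col12a1, which binds type 1 fibrils in tendon and wounds, was at 37.2, 44.2, 226 and 914 CPM and rose 5.13-fold (4.83 to 5.44) from 1 to 3 dpi and 4.03-fold (3.95 to 4.12) from 3 to 7 dpi. Its relative Col14a1 was at 457, 210, 409 and 505 CPM and fell to 0.459 at 1 dpi. Col16a1 was at 63.0, 52.1, 102 and 331 CPM and rose 3.26-fold (3.16 to 3.37) in the last step. Col22a1, known from muscle-tendon junctions, was at 2.35, 1.74, 0.657 and 4.74 CPM and rose 7.21-fold (5.01 to 10.7), while Col20a1 stayed between 0.925 and 1.49 CPM.

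The remaining members were low in mesenchymal cells. Col7a1, the anchoring fibril of skin, was at 0.674, 0.363, 0.801 and 11.7 CPM and rose 14.6-fold (10.6 to 20.7) from 3 to 7 dpi. Of the transmembrane collagens, Col13a1 was at 1.14, 0.981, 0.842 and 3.96 CPM, Col17a1 at 2.96, 2.65, 0.945 and 1.02 CPM and Col23a1 at 9.24, 6.10, 4.73 and 13.4 CPM. Col13a1 rose 4.70-fold (3.38 to 6.70) and Col23a1 rose 2.83-fold (2.45 to 3.29) in the last step, and the Col13a1 rise was under 2-fold with thinning. Col26a1 was at 2.89, 0.618, 0.267 and 2.05 CPM, falling to 0.214 (0.122 to 0.351) at 1 dpi and rising 7.66-fold (4.34 to 14.7) in the last step. Col6a4, Col19a1, Col25a1 and Col28a1 did not reach 100 UMIs in mesenchymal cells of any library, and their highest counts there were 16, 11, 16 and 79 UMIs.

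Within the collagen of mesenchymal cells, type 1 went from 35.7% of UMIs in Uninjured to 30.4% at 1 dpi, 38.4% at 3 dpi and 48.0% at 7 dpi, and type 3 went from 33.7% to 27%, 34.8% and 20.3%. The UMI ratio of Col1a1 to Col3a1 was 0.446, 0.382, 0.450 and 1.28, and that of Col1a1 to Col1a2 was 0.726, 0.514, 0.687 and 1.17. The ratio of Col12a1 to Col14a1 went from 0.0815 to 0.211, 0.554 and 1.81, higher at each later time. The ratio of Col4a1 to Col4a2 moved less, at 2.25, 2.58, 2.38 and 1.86. These ratios are compared between libraries only, since chains differ in length and in how they are captured.

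**Figure D2:**
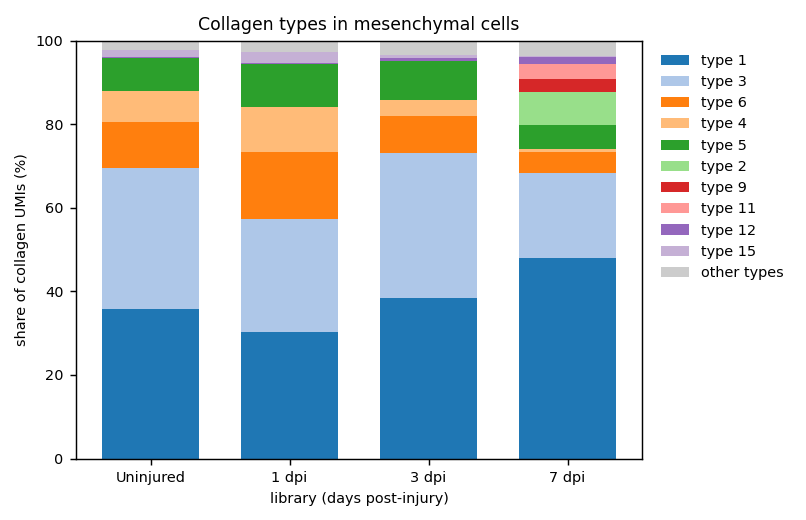
Percent of collagen UMIs of mesenchymal cells by collagen type, as stacked bars for the 4 libraries. Type 1 takes 48.0% at 7 dpi, type 3 shrinks to 20.3%, and the cartilage types appear in the 7 dpi bar.

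Mesenchymal cells were a mixture whose parts changed between libraries. Chondrocyte-like cells numbered 0, 0, 2 and 4677 and tenocyte-like cells 117, 44, 167 and 1790, while the Pi16 adventitial-like fibroblasts numbered 3377, 983, 1182 and 622. With chondrocyte-like and tenocyte-like cells left out, the ratio of total collagen of 7 to 3 dpi was 1.70 (1.70 to 1.70), and 15 of 35 members rose and 4 fell, beside 5.29% and 4.82% of all genes. Col27a1, Col22a1, Col13a1 and Col4a2 were no longer 2-fold in that step. The 15 include cartilage collagens near the B-cell level: Col2a1 was at 111 CPM in these cells at 7 dpi against 193 in B cells, and Col10a1 at 8.01 against 16.1. On the CPM scale their rise there is therefore not distinguished from background. The median depth was 6285 UMIs in these cells and 1448 in B cells, and background per cell was not compared. Col6a5, Col7a1, Col9a1, Col9a2, Col9a3, Col11a2 and Col24a1 also lay within the B-cell interval, whereas Col1a1, Col8a2, Col11a1, Col12a1, Col16a1 and Col23a1 lay above it. These members were set against B cells only, and neutrophils and mast cells held more collagen than B cells at 7 dpi. The share of collagen in the Pi16 cells alone was 2.94%, 1.38%, 2.60% and 4.74%, and in the interstitial fibroblasts 3.64%, 2.19%, 2.81% and 5.22%, so both subsets had the low at 1 dpi and the high at 7 dpi.

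In Uninjured muscle 13 of 27 members were higher and 1 lower in interstitial fibroblasts than in Pi16 cells, beside 6.53% and 5.26% of all genes. The higher members included 4 of the 6 type 4 chains (Col4a1 to Col4a4) and both multiplexins. Col4a1 was at 2557 against 645 CPM (3.97-fold), Col15a1 at 1021 against 166 CPM (6.16-fold), Col6a6 at 249 against 96.3 CPM (2.58-fold) and Col18a1 was 3.03-fold higher. Col14a1 was the member that was lower, at 232 against 679 CPM (0.341). At 1 dpi 8 of 23 members were higher in the interstitial cells and 1 lower (4.33% and 3.19% of all genes), at 3 dpi 6 of 22 and 1 (2.52% and 2.05%), and at 7 dpi 4 of 24 and 0 (1.62% and 2.5%). Within the interstitial cells Col4a1 stood at 2557, 1988, 1506 and 1236 CPM over the 4 libraries, and within the Pi16 cells at 645, 650, 469 and 361 CPM. The Col4a1 level of all mesenchymal cells, which went to 188 CPM at 7 dpi, was thus lower than in either subset, and the number of interstitial cells went from 2591 to 355. In the Lrrc15 Tnn fibroblasts of 7 dpi, 8 of 30 members were higher and 5 lower than in Pi16 cells, beside 3.16% and 3.45% of all genes. Col12a1 was at 818 against 286 CPM (2.86-fold), and Col7a1 was at 17.4 against 0.958 CPM (18.2, 7.67 to 56.5).

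Tenocyte-like cells of Uninjured muscle, gated without collagens, held collagen at 6.56% of UMIs against 3.26% in fibroblasts. Of 33 members, 11 were higher and 12 lower, beside 5.74% and 16.2% of all genes. Col1a1 was at 23414 against 4667 CPM (5.02-fold) and Col12a1 at 590 against 27.8 CPM (21.2-fold). Col11a1 was at 440 against 0.979 CPM (449-fold, 350 to 585) and Col11a2 at 270 against 0.350 CPM (772-fold), so type 11 chains were present before injury in this small class of 117 cells. Col2a1 was at 48.4 CPM there (36.9 to 62.4, 59 UMIs), against 0.434 CPM in fibroblasts. Col22a1 was at 137 against 0.0559 CPM, with 167 and 4 UMIs (2449-fold, 939 to 9095). All 6 type 4 chains were lower there. At 7 dpi 4 of 34 members were higher than in fibroblasts and 7 lower, beside 0.681% and 3.18% of all genes. The Col1a1 ratio of tenocyte-like cells to fibroblasts was 5.02, 3.88, 1.81 and 1.30 over the 4 libraries, while the summed level of the tenocyte markers in this class was 14606 CPM in Uninjured, 22454 at 1 dpi, 12124 at 3 dpi and 3082 at 7 dpi, so the class held less of its own markers at 7 dpi. Whether the make-up of the class played a part in that ratio was not tested.

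At 7 dpi the chondrocyte-like cells were gated on at least 3 of Acan, Matn1, Matn3, Cnmd, Snorc, Hapln1, Sox9 and Epyc. All 8 markers were detected in the class and summed to 6611 CPM, a level set in part by the gate itself. Collagen of the chondrocyte-like cells was 5.92% of UMIs against 4.84% in the other mesenchymal cells, a ratio of 1.22 (1.22 to 1.23). Of 36 members 9 were higher and 10 lower, beside 3.42% and 4.13% of all genes. Col2a1 was at 10471 against 128 CPM (81.7-fold, 79.6 to 84.0), Col10a1 at 552 against 8.05 CPM (68.5-fold, 61.5 to 76.5), Col9a1 at 1277 against 34.4 CPM (37.1-fold), Col9a3 at 1526 against 39.2 CPM (38.9-fold) and Col9a2 at 1006 against 48.3 CPM (20.8-fold). Col11a2 was at 922 against 29.2 CPM (31.6-fold), Col11a1 at 3542 against 309 CPM (11.5-fold), Col27a1 at 619 against 105 CPM (5.92-fold) and Col13a1 at 7.41 against 1.78 CPM (4.17-fold). All chains of types 2, 9, 10 and 11 were thus higher in these cells. In B cells of this library Col2a1 was at 193 CPM (147 to 248, 60 UMIs) and Col10a1 at 16.1 CPM (5.22 to 37.5, 5 UMIs). The CPM in the other mesenchymal cells was thus at or below that of B cells, and those ratios are limited by this background. B cells held fewer UMIs per cell (median 1448 against 6167), and background per cell was not compared. Col11a1 in B cells was at 96.4 CPM (65.0 to 138), under the 309 CPM of the other mesenchymal cells.

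The type 1 chains had ratios near 1 in this comparison: Col1a1 was at 13467 against 13719 CPM and Col1a2 had a ratio of 0.94. The chondrocyte-like cells therefore held the cartilage collagens beside type 1 RNA, of which B cells held 1982 CPM of Col1a1. Col3a1 was at 7309 against 12790 CPM (0.571). Lower were Col4a1 at 97.3 against 245 CPM (0.398), Col5a3 at 138 against 313 CPM, Col14a1 at 274 against 651 CPM, Col15a1 at 55.3 against 117 CPM and Col6a6 at 7.64 against 27.4 CPM, with Col4a2, Col4a4, Col6a5, Col22a1 and Col26a1. Of these, Col5a3 lost its call with thinning, Col14a1 with thinning or 2 markers, Col15a1 with 4 markers or median-of-ratios scaling, and Col26a1 with 4 markers or no doublet removal.

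**Figure D3:**
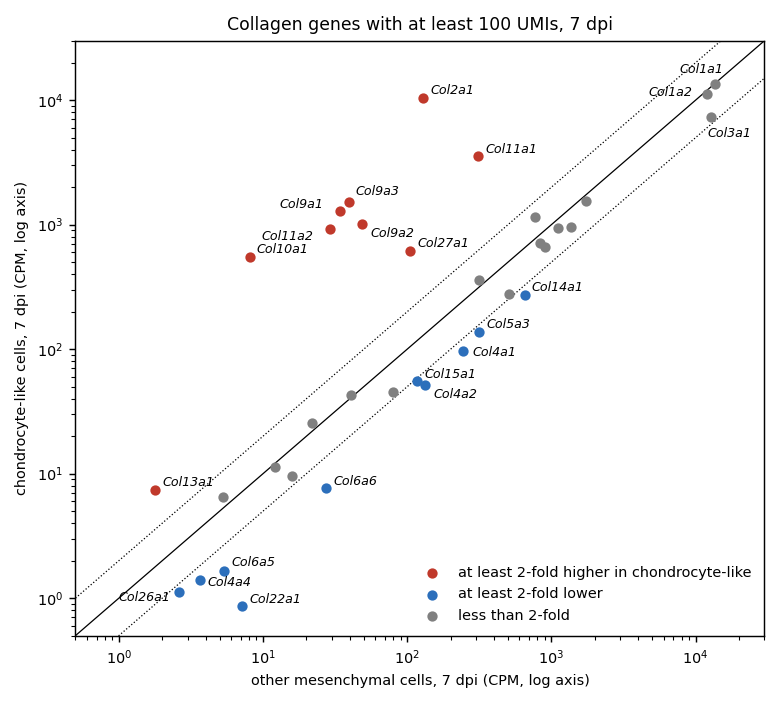
CPM of each collagen gene in chondrocyte-like cells against the other mesenchymal cells of the 7 dpi library, both axes logarithmic. Col2a1, Col10a1 and the chains of types 9 and 11 lie above the diagonal, and Col1a1 (13467 against 13719 CPM) lies on it.

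In single chondrocyte-like cells thinned to 1000 UMIs, 15.8% of 4571 cells held UMIs of both Col2a1 and Col10a1, 68.3% held Col2a1 alone, 0.175% held Col10a1 alone and 15.7% held neither. In B cells 19.1% had a Col2a1 UMI and 1.64% had a Col10a1 UMI. Most cells of the class thus held Col2a1, with or without Col10a1. Nearly all cells with Col10a1 also held Col2a1, but this was not compared with the overlap expected from their separate rates. The gate required chondrocyte markers, so cells with Col10a1 but without those markers could not enter. Cells were then ordered by how many of 6 hypertrophic markers, none of them a collagen, they held, after thinning to equal depth. From 0 markers to 4 or more, in 1291, 1358, 1103, 630 and 189 cells, Col10a1 was at 67.4, 297, 808, 1397 and 2836 CPM. Col2a1 was at 6311, 8433, 11792, 14868 and 18286 CPM over the same bins, so both were higher in each bin. Col1a1 was at 13997 CPM in the first bin and 16238 in the last, and Col3a1 at 8830 and 6265. Without thinning, Col10a1 and Col2a1 were again higher in each bin, but Col1a1 turned, from 14914 CPM at 0 markers to 13146 at 5 or more, with median UMIs of 2582.5 and 7373.5 in those bins.

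**Figure D4:**
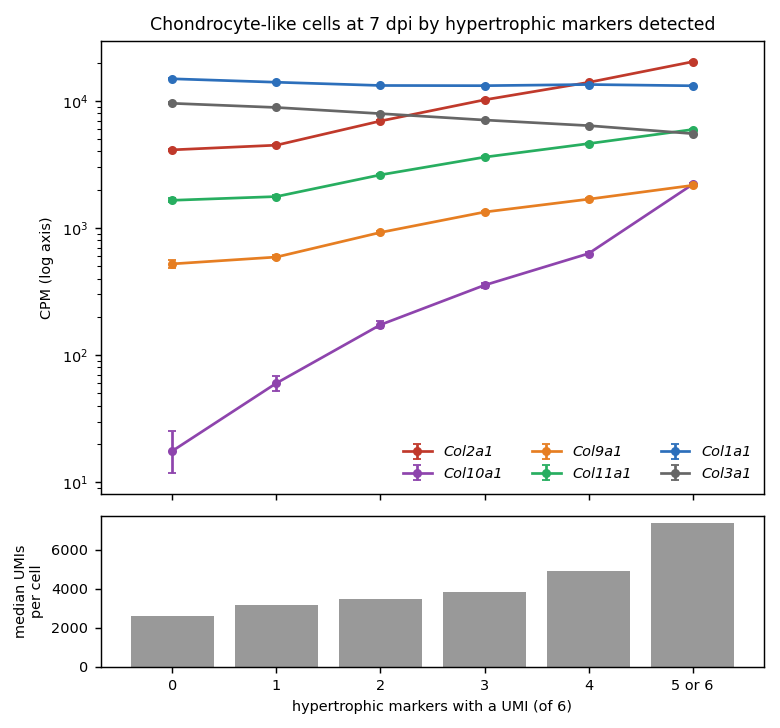
CPM of 6 collagen genes in chondrocyte-like cells of the 7 dpi library by the number of hypertrophic markers detected, with the median UMIs per cell in the lower panel. Col10a1 goes from 17.6 to 2203 CPM, and the depth of the cells also differs between the bins.

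Promoters of members that rose in mesenchymal cells from 3 to 7 dpi were read from RefSeq (GRCm38.p6), 250 bases before the start site, with motif matches on either strand in capitals. The TATA box was searched as TATAAA. The CCAAT box, a motif of many promoters that is known by its letters, was searched as named. The GC box was searched as GGGCGG. They are shown for the hypertrophic collagen and for both chains of type 11.
Col10a1, chr10:34389731-34389980, + strand: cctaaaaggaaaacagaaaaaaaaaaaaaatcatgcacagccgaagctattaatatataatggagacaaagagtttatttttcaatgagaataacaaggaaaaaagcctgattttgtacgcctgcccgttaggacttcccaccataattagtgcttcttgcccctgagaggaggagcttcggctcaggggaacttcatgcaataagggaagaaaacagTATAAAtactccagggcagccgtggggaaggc
Col11a1, chr3:114030290-114030539, + strand: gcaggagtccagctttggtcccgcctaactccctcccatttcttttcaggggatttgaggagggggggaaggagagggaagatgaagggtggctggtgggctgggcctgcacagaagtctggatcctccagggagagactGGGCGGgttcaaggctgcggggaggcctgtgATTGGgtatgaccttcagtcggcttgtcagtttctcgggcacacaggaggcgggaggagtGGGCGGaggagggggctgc
Col11a2, chr17:34038888-34039137, + strand: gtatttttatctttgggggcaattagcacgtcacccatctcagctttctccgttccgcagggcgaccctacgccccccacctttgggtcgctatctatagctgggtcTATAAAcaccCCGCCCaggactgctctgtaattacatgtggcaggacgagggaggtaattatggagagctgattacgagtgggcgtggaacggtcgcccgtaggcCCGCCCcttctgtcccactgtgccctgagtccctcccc
TATAAA stands 32 bases before the RefSeq start of Col10a1 and 143 before that of Col11a2, whose start in the GENCODE annotation (34039437) lies further downstream, and Col11a1 has CCAAT (as its complement) and GGGCGG matches. Over 38 promoters of 35 members found in the table, TATAAA was in 5 and GGGCGG in 22, and over all 32851 promoters these stood in 12.4% and 32.7%. CCAAT was in 13 of 38 and in 33.8% of all. A core of the Runx motif, TGTGGT, was in 3 of 38 and in 14% of all. A core of the Sox motif, ACAATG, was in 1 of 38 and in 10.7% of all.

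Single members were higher in some other classes than in mesenchymal cells. In Uninjured muscle, members were not higher more often than all genes in any class set against mesenchymal cells. Ratios to mesenchymal cells are given for Uninjured or 1 dpi, where background was low. Levels at the later times stand beside the B-cell level. In Schwann-like cells, the glia of peripheral nerve, Col20a1 was at 427 CPM (387 to 470) in Uninjured, 632 at 1 dpi, 629 at 3 dpi and 217 at 7 dpi, which in Uninjured was 288 times (232 to 359) the mesenchymal level. Col28a1, also known from glia and at most 79 UMIs in mesenchymal cells of a library, was at 59.2, 73.2, 67.8 and 154 CPM. B cells at 7 dpi held 0 UMIs of Col20a1 and 0 of Col28a1, which allows up to 11.8 CPM of each. Col27a1 was at 147 CPM (4.57-fold) and Col23a1 at 41.6 CPM (4.50-fold) in Uninjured. Type 9 was at 35.3 CPM and type 11 at 43.6 CPM in Uninjured, against 4.30 and 13.2 CPM in mesenchymal cells. Of 33 members, 6 were at least 2-fold higher and 23 lower than in mesenchymal cells, beside 18.4% and 20.4% of all genes.

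In endothelial-like cells Col8a1 was at 213, 222, 350 and 210 CPM (2.65-fold in Uninjured) and Col18a1 at 204, 139, 278 and 306 CPM (2.02-fold in Uninjured), and 2 of 33 members were higher and 28 lower, beside 20.4% and 36.0% of all genes. In pericyte and smooth muscle-like cells Col18a1 was at 274, 337, 666 and 1296 CPM (2.71-fold in Uninjured), with 2 of 33 higher and 26 lower, beside 12.9% and 28.4%. The values at 1 and 3 dpi rested on only 8 and 17 cells, with intervals of 211 to 510 and 523 to 836 CPM. The endothelial Col18a1 value of Uninjured rested on 22 UMIs in 22 cells (ratio 1.26 to 3.06), and at 1 dpi its ratio was 1.65 (1.22 to 2.18), under 2-fold. The Col8a1 value of Uninjured rested on 23 UMIs in these cells (135 to 320 CPM). In this class 1 UMI stood for 9.26 CPM. Members low in mesenchymal cells were thus called lower whenever they had no UMI here, so the rule itself favours the lower calls. In B cells at 7 dpi Col18a1 was at 16.1 CPM and Col8a1 at 38.5 CPM. Unlike in mesenchymal cells, type 4 was highest at 7 dpi in endothelial-like cells, at 1176, 963, 910 and 2711 CPM. In pericyte and smooth muscle-like cells it was at 1444, 1791, 1953 and 3983 CPM, again from 8 and 17 cells at 1 and 3 dpi. It made up 54.0% and 55.7% of the collagen UMIs of these classes in Uninjured. B cells held 67.5 CPM of type 4 at 7 dpi. Type 1 collagen at 7 dpi stood at 9332 CPM in endothelial-like cells and 7547 CPM in pericyte and smooth muscle-like cells, against 3312 CPM in B cells. Collagen as a whole was at 19948 and 22596 CPM in these classes at 7 dpi, against 14004 CPM in neutrophils and 32648 CPM in 30 mast cells. Whether background in the endothelial-like and the pericyte and smooth muscle-like cells was above the B-cell level was not tested. In satellite-like cells, the stem cells of muscle, Col26a1 was at 69.2 CPM (54.2 to 87.2) in Uninjured, 24 times (18.1 to 31.5) the mesenchymal level, and was the member higher of 33, with 30 lower, beside 10.4% and 24.5%. At 1, 3 and 7 dpi Col26a1 was at 16.5 (8 UMIs), 28.5 and 161 CPM in these cells. Schwann-like cells of Uninjured muscle also held Col26a1, at 18.7 CPM (18 UMIs). Col19a1, which had 0 UMIs in mesenchymal cells of Uninjured muscle, had 27, 34, 28 and 9 UMIs in the satellite-like cells. In 41 keratinocyte-gated cells of the 3 dpi library, Col17a1, a hemidesmosome collagen, was at 1439 CPM (1297 to 1592).

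**Figure D5:**
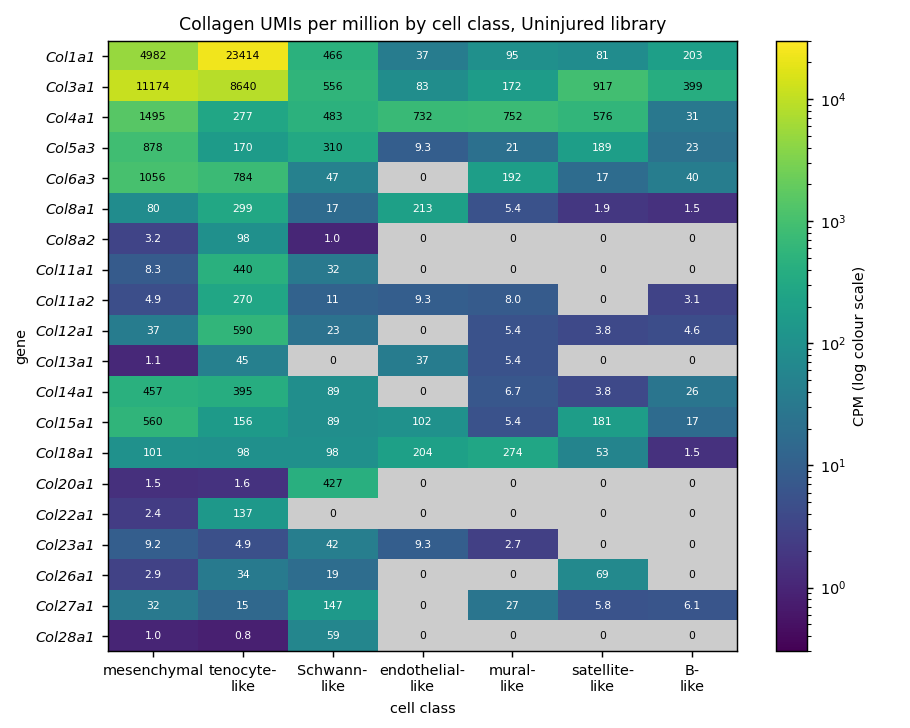
CPM of 20 collagen genes in 7 cell classes of Uninjured muscle on a logarithmic colour scale. Col20a1 stands out in Schwann-like cells, Col26a1 in satellite-like cells and Col22a1 in tenocyte-like cells, while the B-cell column shows the background.

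Of 28 genes that modify, fold or crosslink collagen, 2 rose and 1 fell at 1 dpi, 5 rose and 1 fell from 1 to 3 dpi, and 1 rose and 1 fell from 3 to 7 dpi. The shares of all genes that rose and fell were 5.22% and 3.61%, 5.43% and 4.85%, and 9.07% and 7.39% in these steps. The counts at 1 dpi, and the count that fell from 1 to 3 dpi, were thus near the background. Both counts from 3 to 7 dpi were below it. At 1 dpi P4hb, a subunit of prolyl 4-hydroxylase, rose 2.19-fold (2.14 to 2.24) while Sparc, a collagen-binding matrix protein, fell from 13855 to 4916 CPM (0.355). From 1 to 3 dpi P4ha3, a catalytic prolyl 4-hydroxylase subunit, went from 3.67 to 51.5 CPM (14-fold, 11.5 to 17.3), Lox, which crosslinks fibrils, from 188 to 846 CPM (4.51-fold) and Plod2, a lysyl hydroxylase, from 94.9 to 265 CPM (2.80-fold). These enzymes were thus higher at 3 than at 1 dpi. Total collagen also rose in that step, 1.53-fold, and was still below the Uninjured level at 3 dpi. Serpinh1, the collagen chaperone, was at 1295, 1766, 1781 and 2447 CPM with no 2-fold step. In chondrocyte-like cells Loxl4 was at 31.9 against 4.22 CPM in the other mesenchymal cells (7.58-fold, 6.44 to 8.96).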

How the data were processed

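Single cells of tibial muscle were sequenced on the 10x platform in 4 libraries. Per the labels, Cell Ranger 5.0.0 with STAR mapped reads to mm10, and Seurat 3.1.1 was named. The deposited values are raw UMI counts per gene and barcode. The methods mention down-sampling, and whether it preceded these counts is not given in the sources used here. Per library, barcodes within 2 SD of the mean log10 UMIs and genes and with at most 10% mitochondrial UMIs were kept, and the top 7.5% of Scrublet scores were removed (scanpy 1.11.5, Python 3.11.15). A class needed at least 3 detected markers and a lead of 2 over the next class, and no marker was a collagen. The mesenchymal class was scored by the highest count among the mesenchymal, chondrocyte and tenocyte lists. UMIs were summed per class and library, and ratios are of CPM with exact conditional binomial 95% intervals (scipy 1.17.1). Members were named where they had at least 100 UMIs in mesenchymal cells of a library. With 1 library per group no test was run and no p-value is given. The calculations were checked on simulated data. The members and lists were chosen with earlier results of these data known. Gating, doublet removal, filters, scaling, background and thresholds were varied.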

Additional observations from a re-analysis of the deposited data

Results flagged for a closer look

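Some collagens moved in opposite directions in the 2 fibroblast subsets, and the difference itself was not tested. From Uninjured to 1 dpi the CPM ratio of Col12a1 was 0.665 (0.575 to 0.767) in Pi16 adventitial-like cells and 1.26 (1.09 to 1.46) in interstitial cells. From 1 to 3 dpi the ratio of Col6a3 was 1.06 (1.03 to 1.09) and 0.932 (0.909 to 0.955), and that of Col18a1 was 1.16 (1.04 to 1.30) and 0.795 (0.732 to 0.863). Cells placed in no class, which the comparisons did not use, held collagen at 4.02% of UMIs at 7 dpi and 1.99% in Uninjured.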

How the results depend on the processing

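No paired analysis was possible because each group was 1 library, and for the same reason no replicate could be left out. The log2 ratio of total collagen at 1 dpi against Uninjured (−0.86) was −0.85 with 4 markers, −0.83 with no doublet removal, −0.79 with linear limits, −0.83 with thinned cells, −1.04 with median-of-ratios scaling, −0.88 without collagen in the denominator, −0.84 with B-cell CPM subtracted, −0.98 with the Prrx1 gate and −0.84 without chondrocyte-like and tenocyte-like cells, an alternative added after seeing the data. From 1 to 3 dpi (0.61) the values were 0.58, 0.55, 0.51, 0.70, 0.63, 0.58 and 0.62 for no doublet removal, linear limits, thinning, median of ratios, the other denominator, B-cell subtraction and the Prrx1 gate. From 3 to 7 dpi (0.91) they were 0.92, 0.93, 1.05, 1.06, 0.95, 0.78 and 0.95 in the same order, 0.89 with 4 markers and 0.77 without those cells. Every direction was kept. At 1 dpi the count higher went from 0 to 1 without those cells, and the count lower from 7 to 4 with thinning and 12 at 1.5-fold. At 3 dpi the count higher went from 5 to 2 with thinning, 8 with median of ratios, 9 at 10 UMIs and 9 at 1.5-fold, and the count lower from 5 to 1, 11 at 10 UMIs and 8 at 1.5-fold. At 7 dpi the count lower went from 4 to 2 with the Prrx1 gate and 9 at 1.5-fold, and in chondrocyte-like cells from 10 to 4 with thinning. Col6a5 from 3 to 7 dpi reversed to −0.15 (log2) with B-cell subtraction, where its B-cell level rests on very few UMIs. The causes were not tested. Of the counts, 77 stayed within 1.5 times and 13 did not. Depth limits members with few UMIs, and background at 7 dpi limits ratios of cartilage collagens.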
